A study of Mus musculus with 6 samples.

Results

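The transcription factors Pax2, Pax8, Maf, Tfcp2l1, Gata3, Foxi1, Elf5 and Grhl2, which mark kinds of tubule cell, were followed in the obstructed mouse kidney with and without tubular c-Abl. They were taken by gene symbol from a table of 18849 genes, and all 8 were found. Messenger RNA of whole kidney had been sequenced in 6 libraries from male C57BL/6 mice aged 8 weeks, each after 14 days of unilateral ureteral obstruction (UUO), in which a tied ureter injures the tubules and scars the kidney. The 3 control libraries came from mice whose Abl1 gene (c-Abl, a tyrosine kinase) is flanked by loxP sites on both alleles and intact. Their genotype label reads WT, whereas the design text gives floxed alleles, and the name floxed is used for them. The 3 knockout libraries (genotype label: c-Abl knockdown) came from mice with the same loxP alleles plus the Ksp-Cre transgene. Ksp-Cre is driven by the promoter of kidney-specific cadherin (Cdh16) and acts in tubule and collecting duct epithelium, so other kidney cells keep Abl1. The labels name no further allele or agent, and they leave unsaid whether the 6 libraries came from 6 mice. The p-values therefore cover only the spread among libraries. Unobstructed kidneys were not analysed here.

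As background, the nephron is a tube of successive segments, each built from cells with their own transporters, and each held in its identity by a set of transcription factors. Pax2 and its relative Pax8 are paired-box factors needed to form the renal epithelium in the embryo and still made in adult tubules. Maf is a basic leucine zipper factor of the proximal tubule that macrophages also make. Tfcp2l1, Gata3, Foxi1, Elf5 and Grhl2 belong to the collecting duct and neighbouring distal segments, where principal cells move water and sodium and intercalated cells move acid and base. Foxi1 is a forkhead factor required for intercalated cells, Tfcp2l1 a CP2-family factor of the same duct, Gata3 a zinc-finger factor of the duct lineage, Elf5 an ETS-family factor of principal cells, and Grhl2 a grainyhead factor that maintains epithelial junctions.

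The promoter windows of 2 of these factors and of 2 transport genes of the cells they mark are shown, because the comparison below sets such factors against such transport genes. They are RefSeq windows of build GRCm38.p6, whereas the expression values were made on mm9, and each runs from 250 bases before to 50 bases after an annotated start, 5′ to 3′ on the strand of the gene. Capitals mark matches to a forkhead motif (TGTTTAC) or a GATA motif (AGATAA), searched on both strands. Foxi1 lies at chr11:34208040-34208339 on the minus strand, Tfcp2l1 at chr1:118627695-118627994, Atp6v1b1 at chr6:83742767-83743066 and Aqp2 at chr15:99578806-99579105, these 3 on the plus strand.
Foxi1: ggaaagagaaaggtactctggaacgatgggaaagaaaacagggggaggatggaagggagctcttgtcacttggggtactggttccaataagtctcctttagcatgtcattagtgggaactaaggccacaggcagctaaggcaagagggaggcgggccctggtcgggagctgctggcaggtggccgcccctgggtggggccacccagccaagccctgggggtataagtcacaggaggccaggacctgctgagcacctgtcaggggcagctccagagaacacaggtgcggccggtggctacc
Tfcp2l1: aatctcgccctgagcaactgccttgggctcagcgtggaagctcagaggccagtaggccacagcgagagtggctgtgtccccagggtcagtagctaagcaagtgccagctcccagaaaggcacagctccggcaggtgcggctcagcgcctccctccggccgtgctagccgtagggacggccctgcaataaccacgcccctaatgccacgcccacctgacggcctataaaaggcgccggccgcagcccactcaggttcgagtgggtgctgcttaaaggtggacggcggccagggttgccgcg
Atp6v1b1: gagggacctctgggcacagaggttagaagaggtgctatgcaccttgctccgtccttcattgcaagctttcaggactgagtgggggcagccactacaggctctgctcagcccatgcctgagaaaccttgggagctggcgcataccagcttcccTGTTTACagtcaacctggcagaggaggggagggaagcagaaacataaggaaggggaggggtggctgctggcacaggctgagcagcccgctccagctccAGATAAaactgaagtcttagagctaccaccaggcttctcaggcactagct
Aqp2: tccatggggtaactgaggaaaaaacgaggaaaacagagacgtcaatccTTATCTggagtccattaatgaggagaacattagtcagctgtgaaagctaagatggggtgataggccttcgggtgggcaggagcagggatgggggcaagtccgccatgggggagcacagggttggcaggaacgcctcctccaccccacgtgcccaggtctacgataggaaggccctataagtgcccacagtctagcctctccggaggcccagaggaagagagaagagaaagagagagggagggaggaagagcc
Atp6v1b1, a proton pump subunit of intercalated cells, had a forkhead match that begins 98 bases before its start and a GATA match at the start itself. Aqp2, the vasopressin-regulated water channel of principal cells, had a GATA match 202 bases before its start. A window of this length held the forkhead letters in 3.65% and the GATA letters in 11.2% of 32817 promoters. Windows were found for 6 of the 8 factors, and none of those windows held either motif or the grainyhead motif AACCNGGTT, which 0.271% of all windows held. Of 10 intercalated cell genes listed, 6 had a window, and Atp6v1b1 alone held a forkhead match and alone a GATA match. Of 9 principal cell genes listed, 6 had a window, with a forkhead match in 1, Avpr2, and a GATA match in 1, Aqp2. These matches describe letters only.

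Expression is given as FPKM, a fragment count divided by gene length and by the size of the library, so levels can be set side by side between genes. In floxed kidney Pax8 was the most abundant of the 8 factors at 54.7 ± 4.06 FPKM (SD, n = 3, as for all means here). It was followed by Maf at 45.0 ± 0.618 and Tfcp2l1 at 44.9 ± 2.95 FPKM, whose floxed ranges overlapped. Foxi1 came next at 18.7 ± 2.66 FPKM. Pax2 stood at 10.7 ± 0.995 and Gata3 at 8.49 ± 1.93 FPKM, again with overlapping ranges. Grhl2 followed at 5.70 ± 0.814 and Elf5 was the lowest at 0.767 ± 0.325 FPKM. The other neighbours in this order had floxed ranges that did not overlap. The spacing of low values in the table implied roughly 16200000 to 17950000 fragments per library. By that estimate Elf5 rested on 19 to 126 fragments per library and the other factors on at least 266.

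None of the 8 factors passed the test between the genotypes, a limma comparison of log2(FPKM + 1) over 13390 genes with Benjamini-Hochberg adjustment at 0.05. In that comparison 0.0672% of all genes passed, so a count of 0 among 8 is near the background. Tfcp2l1 and Elf5, 2 of the 8, had an unadjusted limma p under 0.05, both with more in the knockout, a direction in which 8.38% of all genes had such a p (16.3% in the other). The split between directions depends on scaling: higher genes made up 34.0% of all genes with such a p as deposited and 54.3% after median-ratio scaling. Elf5 reached 1 FPKM in 1 floxed library and in all 3 knockout libraries, so it entered the test through the group where it is high. Its place in these counts and in those below carries no weight. The same 2 were the factors whose groups did not overlap, where 10% of all genes lay apart with the knockout higher and 21.7% with it lower. The log2 fold change, always knockout minus floxed on the log2(FPKM + 1) scale, was above 0 for 6 of the 8 factors with a median of 0.16. Over all genes tested the median was -0.12, and 4629 of 13390 were above 0. The targeted gene Abl1 was measured at 18.16, 15.93 and 17.33 FPKM in floxed replicates 1 to 3 and at 10.46, 14.45 and 12.91 FPKM in knockout replicates 1 to 3 (limma adjusted p = 0.144).

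**Figure D1:**
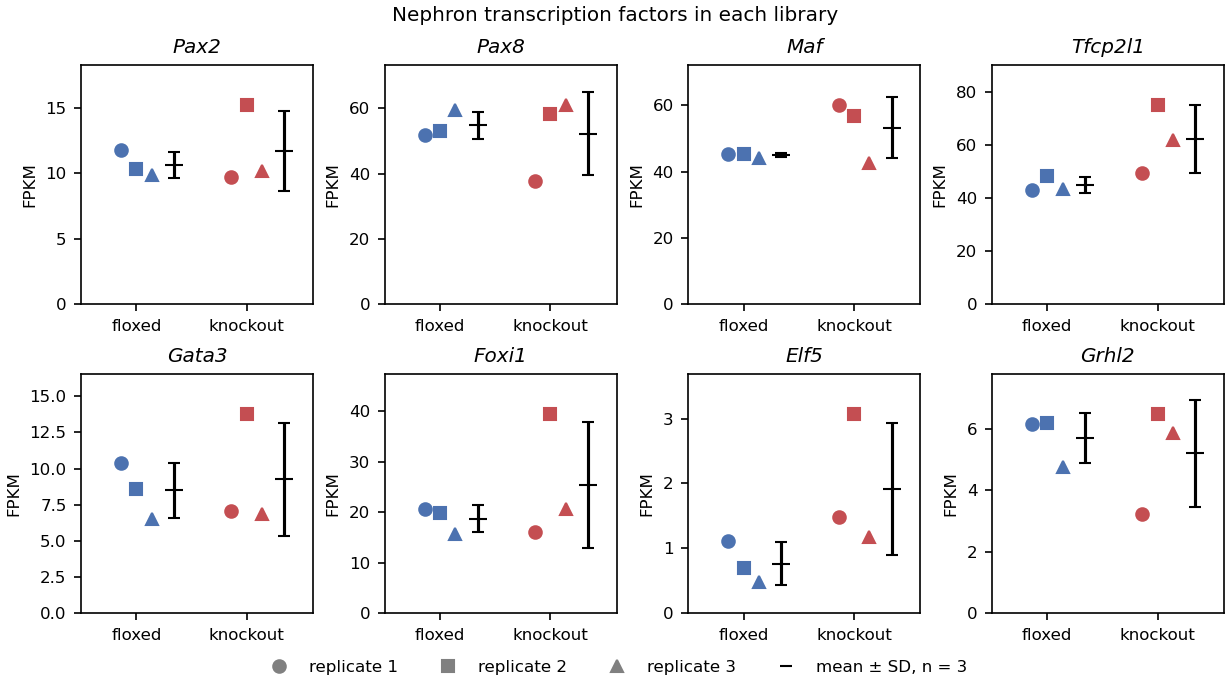
FPKM of the 8 factors in each library (blue floxed, red knockout, marker shape by replicate number, black bars mean ± SD, n = 3). Knockout replicate 2 was the highest library for 6 of the 8 factors, and the knockout groups were more spread out than the floxed groups for all 8.

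The 2 paired-box factors differed little in mean between the genotypes. Pax2 was measured at 11.78, 10.34 and 9.87 FPKM in floxed replicates 1 to 3 and at 9.69, 15.21 and 10.2 FPKM in knockout replicates 1 to 3. Knockout replicates 1 and 3 lay within or just below the floxed values, and replicate 2 above all of them. The log2 fold change of Pax2 was 0.10 (SE 0.185, limma adjusted p = 0.746), with a 95% interval from -0.34 to 0.54. Pax8 was measured at 51.75, 53.07 and 59.35 FPKM in floxed replicates 1 to 3 and at 37.65, 58.15 and 60.93 FPKM in knockout replicates 1 to 3. Replicate 1 of the knockout was the lowest library, and the other 2 stood at the level of floxed replicate 3. The log2 fold change of Pax8 was -0.09 (SE 0.195, limma adjusted p = 0.777), with a 95% interval from -0.56 to 0.37, and it turned to 0.063 with median-ratio scaling of the libraries and to 0.12 without knockout replicate 1. These intervals leave room for changes of either sign, so they do not show that the levels are equal.

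Among 8 genes that background knowledge links to Pax2 and Pax8 in kidney, 7 were tested and 0 passed. Of the 7, 2 had an unadjusted limma p under 0.05, both with more in the knockout, against 8.38% of all genes. The median log2 fold change was 0.34. That median was 0.13 without floxed replicate 3 and 0.21 without knockout replicate 1. Without knockout replicate 3, 3 of the genes passed, 2 of them higher, in a comparison where 9.07% of all genes passed as higher. Slc14a2, the urea transporter of the inner medulla, stood at 6.68 ± 2.06 FPKM in floxed and 14.0 ± 9.40 FPKM in knockout kidney, and its highest value, 24.7 FPKM, came from knockout replicate 3. Wnt4, a ligand of nephron formation, was measured at 11.1, 9.0 and 8.82 FPKM in floxed replicates 1 to 3 and at 2.91, 5.25 and 9.47 FPKM in knockout replicates 1 to 3. The receptor gene Ret, at 0.31 FPKM or less in every library, missed the filter on low values.

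Maf had the tightest floxed values of the 8 relative to its mean. It was measured at 45.32, 45.34 and 44.26 FPKM in floxed replicates 1 to 3 and at 60.11, 56.92 and 42.75 FPKM in knockout replicates 1 to 3. Replicates 1 and 2 of the knockout exceeded every floxed library, and replicate 3 lay below all of them, so the groups overlapped. Its log2 fold change was 0.22 (SE 0.148, limma adjusted p = 0.370). Without knockout replicate 3 Maf passed with a log2 fold change of 0.37 (limma adjusted p = 0.0322), in a comparison where 9.07% of all genes passed as higher. Without knockout replicate 1 it was 0.13 (limma adjusted p = 0.709). On the first principal component of the 6 libraries (61.8% of the variance), replicate 3 stood at -7.48, against 54.1 and 37.4 for the other knockouts and -29.0 to -26.3 for the floxed libraries. Of 8 proximal tubule transport genes all 8 were above 0, 0 passed (8 without knockout replicate 3, all higher) and the median was 1.17, and set against the floxed mean library by library the median was 1.89, 1.5 and 0.19 for replicates 1, 2 and 3 of the knockout. The sodium-coupled lactate carrier Slc5a12 stood at 19.3 ± 2.12 and 67.8 ± 32.9 FPKM, and the endocytic receptor Cubn at 8.03 ± 1.51 and 18.7 ± 7.55 FPKM. Macrophages, which also make Maf, had lower marker values. The summed FPKM of 6 macrophage markers was 614 to 868 in floxed and 276 to 505 in knockout kidney. The groups were apart for 6 of the 6 markers, against 21.7% of all genes with the knockout lower. None of the 6 passed the limma threshold. All 6 had an unadjusted limma p under 0.05, against 16.3% of all genes with less in the knockout. The part of macrophages in the Maf values was not tested. In bulk tissue, fewer cells of a type and less RNA per cell cannot be told apart.

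Tfcp2l1 was one of the 2 factors whose groups stood apart. It was measured at 43.07, 48.34 and 43.4 FPKM in floxed replicates 1 to 3 and at 49.63, 75.16 and 62.19 FPKM in knockout replicates 1 to 3. Every knockout library exceeded every floxed library, although replicate 1 by little. The mean went from 44.9 ± 2.95 to 62.3 ± 12.8 FPKM, 1.39-fold, with a log2 fold change of 0.45 (SE 0.165, limma adjusted p = 0.167). An exact two-sided permutation test gave p = 0.1, the smallest that 3 against 3 libraries allow, and 0.4 after adjustment over the 8 factors. Elf5 was the other. It was measured at 1.12, 0.70 and 0.48 FPKM in floxed replicates 1 to 3 and at 1.49, 3.07 and 1.18 FPKM in knockout replicates 1 to 3. The lowest knockout library exceeded the highest floxed library by 0.06 FPKM, which by the depth estimate is 42 to 48 fragments against 41 to 46. The mean went from 0.767 ± 0.325 to 1.91 ± 1.01 FPKM, 2.50-fold, with a log2 fold change of 0.68 (SE 0.275, limma adjusted p = 0.188, exact two-sided permutation p = 0.1). With a pseudocount of 0.1 in place of 1 the log2 fold change of Elf5 was 1.17 (limma adjusted p = 0.179), and without knockout replicate 2 it was 0.42 (limma adjusted p = 0.400).

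The Foxi1 difference rested on 1 library. Foxi1 was measured at 20.72, 19.79 and 15.71 FPKM in floxed replicates 1 to 3 and at 16.09, 39.5 and 20.63 FPKM in knockout replicates 1 to 3. Knockout replicate 2 stood at 211% of the floxed mean, and replicates 1 and 3 at 85.9% and 110%. Its log2 fold change was 0.33 (SE 0.311, limma adjusted p = 0.520) and turned to -0.029 without knockout replicate 2. Gata3 showed the same shape. It was measured at 10.37, 8.59 and 6.52 FPKM in floxed replicates 1 to 3 and at 7.10, 13.78 and 6.88 FPKM in knockout replicates 1 to 3. Replicates 1 and 3 of the knockout lay within the floxed range and replicate 2 lay above it. The log2 fold change of Gata3 was 0.07 (SE 0.281, limma adjusted p = 0.891), and -0.23 without knockout replicate 2. T cells and mesangial cells also make Gata3. A list of 7 T and innate lymphoid cell genes summed to 82.5 FPKM in floxed replicate 1, the floxed library with the most Gata3, against 24.6 to 25.6 FPKM in the other 2. In knockout replicate 2, the library with the most Gata3 of all, the same list summed to 19.1 FPKM, the lowest of the 6. The 6 mesangial and smooth muscle genes summed to 109 to 158 FPKM in floxed and 38.5 to 103 FPKM in knockout kidney, 51.7 FPKM in replicate 2. The part of these cells in the Gata3 values was not tested.

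Grhl2 was measured at 6.15, 6.19 and 4.76 FPKM in floxed replicates 1 to 3 and at 3.24, 6.49 and 5.88 FPKM in knockout replicates 1 to 3. The knockout libraries spanned the floxed range, with replicate 1 the lowest of the 6. Its log2 fold change was -0.15 (SE 0.239, limma adjusted p = 0.713), and 0.11 without knockout replicate 1. Urothelium of the renal pelvis also makes Grhl2. Its 7 markers, the uroplakins, Krt5 and Trp63, summed to 39.6, 24.9 and 93.0 FPKM in floxed replicates 1 to 3 and to 6.90, 29.1 and 58.0 FPKM in knockout replicates 1 to 3. Knockout replicate 1 had the least of both, whereas floxed replicate 3, with the most urothelial RNA, had the next-lowest Grhl2. Its part in the Grhl2 values was not tested. Of the 8 epithelial genes listed as Grhl2 targets, 0 were past the threshold. Prom2 alone had an unadjusted limma p under 0.05 with more in the knockout, against 8.38% of all genes. Of the 8, 5 were above 0, and the median log2 fold change was 0.08. That median was 0.29 without knockout replicate 1, -0.0082 without replicate 2 and -0.028 without replicate 3 of the knockout, and -0.0027 with a mean of at least 5 FPKM, so it has no steady sign. E-cadherin (Cdh1) stood at 68.1 ± 4.22 and 87.0 ± 26.2 FPKM, and the tight junction protein Cldn4 at 116 ± 17.7 and 106 ± 64.8 FPKM. For 6 of these 8 genes the highest library was knockout replicate 3. The share of all genes highest in that library was not computed, so the count is no result about these genes. Grhl2 itself was highest in knockout replicate 2, at 6.49 FPKM against 5.88 FPKM in replicate 3.

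Knockout replicate 2 was the highest library for 6 of the 8 factors, all but Pax8 and Maf, while it was the highest for 10.5% of all genes tested. The same library was the highest for all 19 principal and intercalated cell genes listed, among them Aqp2 at 314 FPKM against 70.5 and 36.9 FPKM in knockout replicates 1 and 3 and 11.5 to 36.4 FPKM in floxed kidney. The SD over 3 libraries was larger in knockout than in floxed kidney for all 8 factors and for 61.7% of all genes tested. Of the markers of other cells, 5 fibroblast genes summed to 210 to 245 FPKM in floxed and to 46.7 to 134 FPKM in knockout kidney, lowest in replicate 2, and 1 of the 5, Dpt, passed the threshold (limma adjusted p = 0.0446). The part of tissue composition in the factor values was not tested. Nor was what sets replicate 2 apart, and the labels give no tissue region or batch.

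**Figure D2:**
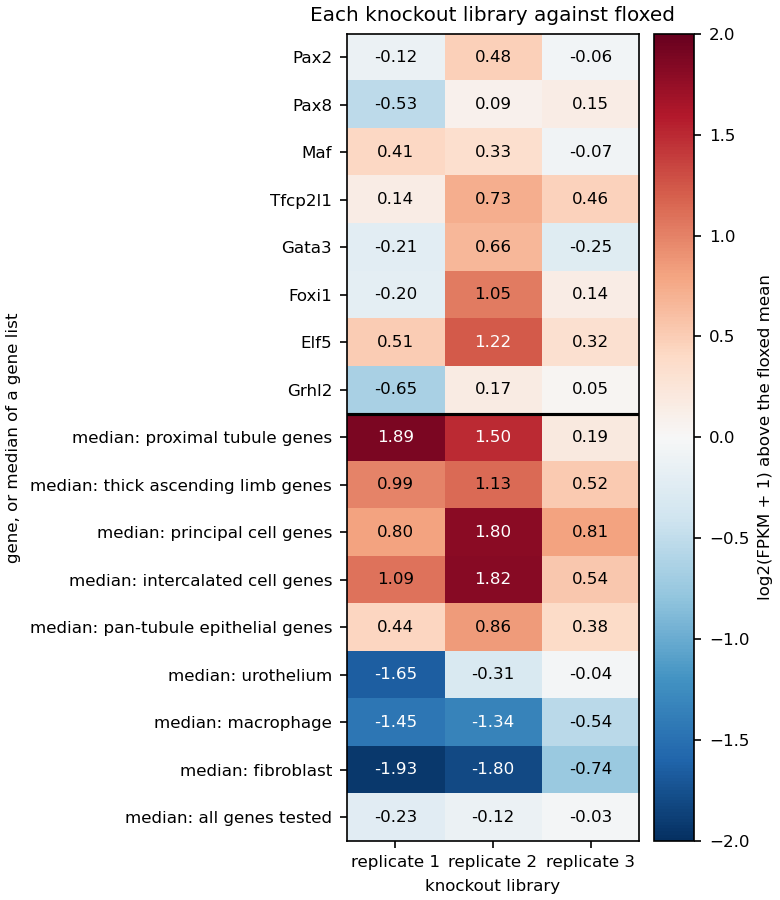
Log2(FPKM + 1) in each knockout library minus the floxed mean, for the 8 factors (above the line) and as medians of gene lists (below it). Foxi1 and Elf5 stood at 1.05 and 1.22 in replicate 2, the library in which the medians of principal and intercalated cell genes were 1.80 and 1.82.

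Genes of the same cells that carry out transport had larger median log2 fold changes than the factors. Of 10 intercalated cell genes all 10 were above 0, with a median log2 fold change of 1.16. None passed the limma threshold, and 7 had an unadjusted limma p under 0.05 with more in the knockout, against 8.38% of all genes. When knockout replicate 3 was left out 7 of the 10 passed as higher, against 9.07% of all genes. Without knockout replicate 2 the median was 0.73. The proton pump subunit Atp6v0a4 was measured at 29.96, 31.37 and 30.4 FPKM in floxed replicates 1 to 3 and at 70.48, 75.3 and 55.01 FPKM in knockout replicates 1 to 3 (limma adjusted p = 0.0547). Atp6v1b1 stood at 31.1 ± 8.82 and 67.6 ± 29.0 FPKM, and the ammonia channel Rhbg at 5.52 ± 2.51 and 19.2 ± 12.5 FPKM. The 9 principal cell genes were all above 0 with a median of 1.11, none past the threshold and 7 at an unadjusted limma p under 0.05, and 5 of them passed as higher without knockout replicate 3. The water channel Aqp3 stood at 9.33 ± 3.36 and 46.4 ± 33.8 FPKM, and Aqp4, another water channel, at 1.57 ± 0.175 and 6.08 ± 2.38 FPKM. The 5 genes common to all tubule segments, among them Cdh16, Fxyd2 and Epcam, had a median of 0.56.

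**Figure D3:**
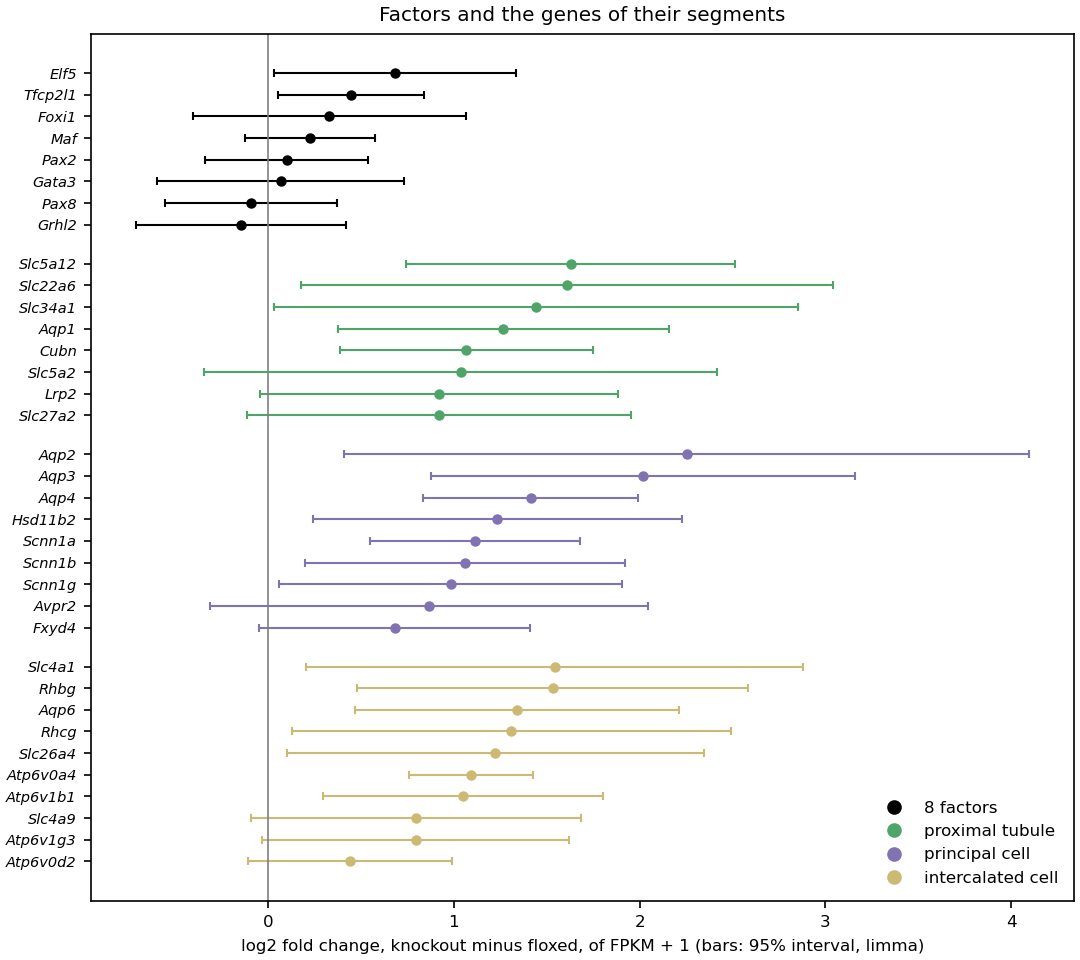
Log2 fold change of FPKM + 1, knockout minus floxed, with 95% limma intervals, for the 8 factors and for genes of the proximal tubule, principal cells and intercalated cells. The factors lay between -0.15 and 0.68, and the segment genes between 0.44 and 2.25.

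To set each factor against its own cells, its log2(FPKM + 1) was taken minus the mean of the segment genes in the same library. Maf was set against proximal tubule genes, Foxi1 against intercalated cell genes, Gata3 and Elf5 against principal cell genes, Tfcp2l1 and Grhl2 against both duct lists, and Pax2 and Pax8 against the genes of all segments. The segment lists were already known to stand higher in the knockout in these data, so the direction of this ratio was largely set in advance, and the values are a description with no test. The difference, knockout minus floxed, was -1.34 for Grhl2, -1.22 for Gata3, -1.01 for Maf, -0.78 for Foxi1, -0.75 for Tfcp2l1, -0.70 for Pax8, -0.61 for Elf5 and -0.51 for Pax2. The groups were apart for 6 of the 8, all but Maf and Tfcp2l1. With a pseudocount of 0.1 Elf5 stood at -0.22 and its groups overlapped. Of all genes tested, 76.7% lay lower with the groups apart when set against the genes of all segments, 77.7% against principal cell genes, 69.6% against intercalated cell genes, 73.8% against both duct lists and 32.3% against proximal tubule genes. The count of the factors is near these shares, so it is no result about the factors.

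**Figure D4:**
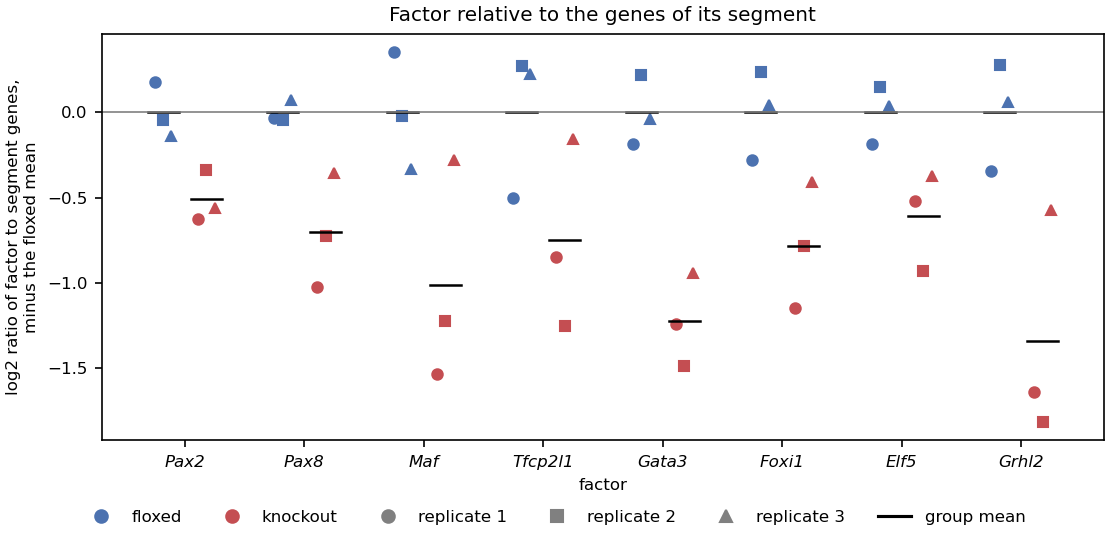
Log2 ratio of each factor to the genes of its segment in each library, with the floxed mean set to 0 (blue floxed, red knockout, black lines group means). Knockout means lie between -0.51 (Pax2) and -1.34 (Grhl2), and for Maf and Tfcp2l1 a knockout library falls among the floxed ones.

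Of 29 other transcription factors of the nephron that were listed, 26 were tested and 0 passed the limma threshold, against 0.0672% of all genes. At an unadjusted limma p under 0.05, 5 were higher and 1 lower, against 8.38% and 16.3% of all genes. Over all genes tested, 4629 of 13390 were above 0, with a median log2 fold change of -0.12. Of the 26 factors, 18 were above 0, with a median of 0.18. The 3 of the proximal tubule had the largest median, 0.65. Hnf4a, a nuclear receptor that drives proximal maturation, stood at 62.6 ± 9.54 and 102 ± 31.8 FPKM (limma adjusted p = 0.174). Knockout replicate 3 lay within the floxed range of Hnf4a. Among 8 factors of the loop and distal tubule 7 were above 0 with a median of 0.22. Esrrb, an orphan nuclear receptor, was measured at 1.40, 1.93 and 1.38 FPKM in floxed replicates 1 to 3 and at 5.11, 5.86 and 2.70 FPKM in knockout replicates 1 to 3 (limma adjusted p = 0.0839), and Pou3f3, a POU factor of the loop, stood at 24.3 ± 1.92 and 28.1 ± 3.0 FPKM.

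In the collecting duct and epithelial group 5 of 9 were above 0, with a median of 0.11. Hmx2, a homeobox factor of intercalated cells, was measured at 1.86, 1.05 and 0.90 FPKM in floxed replicates 1 to 3 and at 3.74, 5.69 and 1.03 FPKM in knockout replicates 1 to 3 (limma adjusted p = 0.264). Ovol1, a zinc-finger factor of epithelia, stood at 2.64 ± 1.13 and 4.94 ± 0.505 FPKM (limma adjusted p = 0.131). Among 9 early and progenitor factors 6 were tested with a median of -0.07. Wt1, which podocytes keep in the adult, was measured at 7.52, 6.30 and 8.56 FPKM in floxed replicates 1 to 3 and at 3.46, 5.95 and 4.18 FPKM in knockout replicates 1 to 3 (limma adjusted p = 0.131), and 3 podocyte markers summed to 64.5 to 100 FPKM in floxed and 43.0 to 64.6 FPKM in knockout kidney. Six2, Eya1 and Osr1, factors of nephron progenitors, stayed at 0.55 FPKM or less in every library.

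Over the 6 libraries, the genes with the most similar course were taken for each factor from at least 10273 other genes with a mean of at least 5 FPKM, by Pearson correlation of log2(FPKM + 1), as a description. For Pax2 the 3 most alike were Ecpas (r = 0.995), Cipc (r = 0.991) and Dmrt2 (r = 0.981). Dmrt2 is a DM-domain factor of acid-secreting intercalated cells and was measured at 7.58, 6.72 and 6.26 FPKM in floxed replicates 1 to 3 and at 5.50, 12.92 and 5.69 FPKM in knockout replicates 1 to 3. It shared the high value in replicate 2. For Elf5 they were the carnitine palmitoyltransferase Cpt1b (r = 0.997), Arfgef2 (r = 0.995) and the sodium channel subunit Scnn1b (r = 0.993). Scnn1b stood at 18.92, 13.73 and 9.29 FPKM in floxed replicates 1 to 3 and at 24.19, 48.94 and 20.66 FPKM in knockout replicates 1 to 3. The single gene most alike was, for Foxi1, the carrier Slc35g1 (r = 0.987), for Tfcp2l1 Tom1 (r = 0.986), for Gata3 Arrdc2 (r = 0.979), for Grhl2 Rcbtb1 (r = 0.986) and for Pax8 the autophagy protease Atg4c (r = 0.986). For Maf the closest was the fructosamine kinase Fn3k (r = 0.997), and 2.74% of the genes searched had an r above 0.95 with Maf, against 0.0487% with Foxi1. Genes measured in the same library share its depth and tissue composition, and these genes were picked as the highest of all searched.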

How the data were processed

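The authors deposited FPKM per gene and library, with 2 decimals, as named per the file headers. The build named is mm9, per the submitters' processing notes. For the aligner, the counting step, the annotation and strand use, no tool is given in the sources used here. Therefore reads of overlapping or antisense genes cannot be told apart. RNA was extracted with TRIzol, per the labels' protocols. The members and all gene lists were chosen with earlier results of these data known.

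Groups and replicate numbers came from the sample titles. The test took the 13390 genes that reached 1 FPKM in 3 or more of the 6 libraries. On log2(FPKM + 1), limma 3.58.1 (R 4.3.3, trend option on) fitted genotype alone, and two-sided p-values were adjusted by Benjamini-Hochberg over all genes tested, with 0.05 as the threshold. This scale understates the change of low genes. The fit was checked on simulated data. Exact permutation tests, adjusted over the 8 factors, used all 20 regroupings of the libraries. Of each other list the text names the genes past the threshold and otherwise the 2 to 4 of smallest p, plus some members chosen after their values were seen (Slc14a2, Wnt4, Cdh1, Cldn4, Atp6v1b1, Aqp2, Pou3f3, and the progenitor factors). Single values of some listed genes are not reported here. The motifs and the promoters printed were chosen after the data were seen.

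Depth was estimated from transcripts of 300 to 2000 nucleotides, where at the best depth 64.0% to 66.4% of low values came within 0.2 of whole fragments against 36.7% to 39.9% at the median of the depths tried. Tables and plots were made in Python 3.11.15 (scipy 1.17.1, pandas 2.3.3, numpy 2.4.6). Of the symbols, 26 that had become dates were restored through the RefSeq gene table of GRCm38.p6. Promoter windows came from RefSeq, with none found for Maf and Grhl2.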

Additional observations from a re-analysis of the deposited data

How the results depend on the processing

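The count of factors past the threshold was 0 under 12 of 13 alternatives and 1, Maf, without knockout replicate 3, where 3293 genes passed in all. The count among the other nephron factors was 0 under the same 12 and 5 without that library (4 higher, among them Hnf4a, Esrrb and Hmx2, and 1 lower, Elf3). With single libraries left out, the log2 fold change ranged from -0.089 to 0.21 for Pax2, -0.22 to 0.12 for Pax8, -0.23 to 0.23 for Gata3, -0.029 to 0.59 for Foxi1 and -0.30 to 0.11 for Grhl2, so each of these 5 changed sign. The negative values of Pax2 and Foxi1 came without knockout replicate 2, as did -0.23 for Gata3, which was also -0.09 without floxed replicate 3. Median-ratio scaling moved the median of all genes by 0.14 and turned Pax8 to 0.063. Maf, Tfcp2l1 and Elf5 stayed above 0 under every alternative run, though Elf5 gave no value with a mean of at least 5 FPKM. Over all genes the count of 9 was between 0 and 10 under the other 12 alternatives. Same-numbered libraries correlated at -0.13, -0.07 and 0.03 in their deviations from the group means, so the numbers were not taken to pair the samples. The fit with the replicate block called 0 of the 8 factors and 2 genes in all. The causes of these shifts were not tested.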
